A study of Mus musculus with 18 samples.

Results

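The comparison described here set 2 fully reprogrammed mouse induced pluripotent stem (iPS) lines against the fibroblasts they were made from. Its members were the arrays whose titles name EOS3F-28 (3 arrays), EOS3F-29 (3 arrays) or CD1 MEFs (3 arrays), 9 of the 18 arrays of the study. The fibroblasts were low passage primary MEFs of CD1 embryos, grown in DMEM with 10% fetal bovine serum. The iPS cells had been made from them with pMX retroviruses for 3 factors: Oct4, Klf4 and Sox2. Both lines are clones, so each stands for 1 reprogrammed cell and its descendants. They grew with the cytokine LIF on a layer of growth-arrested feeder cells, under selection with 1 μg/mL puromycin. The labels name neither feeder cells nor LIF for the MEFs, so these culture conditions cannot be told apart from reprogramming. The other 9 arrays, of a partially reprogrammed line, the same line after conversion in 2i medium, and J1 embryonic stem (ES) cells, entered the model and are named only where a value needs them.

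Reprogramming asks a fibroblast to give up one gene network and take up another. Fibroblasts are mesenchymal cells that secrete collagen, hold it under tension with an actin and myosin cytoskeleton, and answer to TGF-β. Pluripotent stem cells form compact epithelial colonies held together by E-cadherin. They keep themselves through a circuit of transcription factors around Oct4, Sox2 and Nanog, divide with a short G1 phase and carry a DNA methylation machinery of early embryo type.

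All values are log2 array values per gene, differences are full iPS lines minus MEFs on the log2 scale with the mean of both line means standing for full iPS, and errors are the standard error (SE) of the difference. A gene is said to be called, to rise or to fall where its p from limma, adjusted over all 19937 genes, was under 0.05. Replicates of a line correlated over genes at 0.970 to 0.991 and MEF replicates at 0.981 to 0.988. The 2 lines correlated with each other at 0.960 to 0.985, and full iPS with MEF arrays at 0.892 to 0.951. Nothing in the labels tells whether the replicates came from separate cultures. The p-values therefore measure only how far these arrays spread, possibly for technical reasons, and precision is limited by their number. The label of full iPS cells was checked against marker genes. All 8 pluripotent stem cell markers rose, lying between 6.48 and 10.41 in full iPS arrays and between 2.98 and 4.15 in MEF arrays. Markers of primitive endoderm, trophoblast, macrophages and muscle stayed under 5 in every full iPS array.

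Fibroblast RNA was still measured in the full iPS cultures, in unequal amounts. The mean over 9 fibroblast markers was 7.64, 6.26 and 7.0 in EOS3F-28 replicates 1, 2 and 3 and 8.39, 6.56 and 6.78 in those of EOS3F-29, against 8.78, 8.93 and 9.16 in MEFs. Feeder-grown J1 ES cells lay at 7.33, 6.19 and 6.66. EOS3F-29 replicate 1 stood apart: it was the highest of the 6 full iPS arrays for 94.1% of the elastic fibre and matrix glycoprotein genes and 100% of the mesenchymal regulators, against 25.7% of all genes. In such bulk samples fewer cells of a type and less RNA per cell cannot be told apart. Counts are therefore also given without the replicate 1 arrays of both lines, a choice made after these values were seen.

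Between full iPS lines and MEFs 6968 genes were called, 35.0% of all tested: 3417 (17.1%) rose and 3551 (17.8%) fell. At least a 2-fold difference was reached by 617 of the rises (3.09% of genes) and 941 of the falls (4.72%). Differences of at least 16-fold were found for 16 rises but only 2 falls, Aspn and Ccdc80. Of the 2-fold rises 610 had no overlap between the 6 full iPS and the 3 MEF arrays, and of the 2-fold falls 896. Over all genes 2865 (14.4%) lay higher and 2881 (14.5%) lower without overlap. The 2-fold genes were picked by the same values, so their lack of overlap is no separate evidence. Without the replicate 1 arrays of both lines the 2-fold counts were 723 and 1169. The median difference over all genes was 0.03. Centring the arrays on 14 housekeeping genes, of which 5 fell and 2 rose, moved that median to 0.45 and the share of rises among the calls to 89.7%, against 49.0% as deposited. The counts of gene groups with small differences therefore depend on the scale. Counts under this centring are given beside many of them, and a list without such a count can depend on the scale too.

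The pluripotency circuit was higher in both lines by the largest margins of the comparison. Of 25 measured pluripotency transcription factors 24 rose (96.0%, against 17.1% of all genes), 20 of them at least 2-fold, with a median difference of 2.76 against 0.03 for all genes. Pou5f1, which encodes Oct4, had a lowest, median and highest value of 8.88, 9.65 and 10.13 in the 6 full iPS arrays, against 3.35, 3.17 and 2.98 in the MEF arrays, a difference of 6.43 ± 0.14 (adjusted p = 2.37e-15). Nanog, the homeobox factor that stabilises the pluripotent state, lay at 8.04, 8.42 and 8.77 in full iPS arrays, against 3.31, 3.62 and 3.33 in MEFs, a difference of 4.98 ± 0.19 (adjusted p = 7.19e-12). Sox2, the partner of Oct4 on DNA, lay at 7.81, 8.19 and 8.56, against 3.87, 3.91 and 3.49 in MEFs, a difference of 4.45 ± 0.18 (adjusted p = 7.19e-12). In all 3 the arrays of the groups were far apart, with more than 3 log2 units between the lowest full iPS and the highest MEF array. Whether the probes of Pou5f1, Sox2 and Klf4 also read retroviral transcript was not tested.

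Klf4, the third introduced factor, rose least of the 3. Its values were 6.57, 6.72 and 6.97 in full iPS arrays, against 5.84, 5.36 and 6.01 in MEFs, which express it themselves (1.0 ± 0.14, adjusted p = 2.11e-05). Myc, which was not introduced, was at -0.24 ± 0.35 (adjusted p = 0.656), with values of 7.01, 7.21 and 7.01 in EOS3F-28 and 6.58, 5.54 and 6.09 in EOS3F-29, against 6.78, 7.28 and 6.38 in MEFs. The MEF range of Myc overlapped that of each line, while the 2 lines did not overlap each other. Its relative Mycn rose by 3.69. Factors that no virus carried rose as well. The orphan nuclear receptor gene Nr0b1 rose by 5.17 ± 0.17, Utf1, which encodes a chromatin protein of undifferentiated cells, by 5.21 ± 0.14, Esrrb, another nuclear receptor gene, by 3.40 ± 0.15, and Zfp42, which encodes Rex1, by 3.33 ± 0.19. The 1 factor not called was Foxd3, at 0.20.

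**Figure D1:**
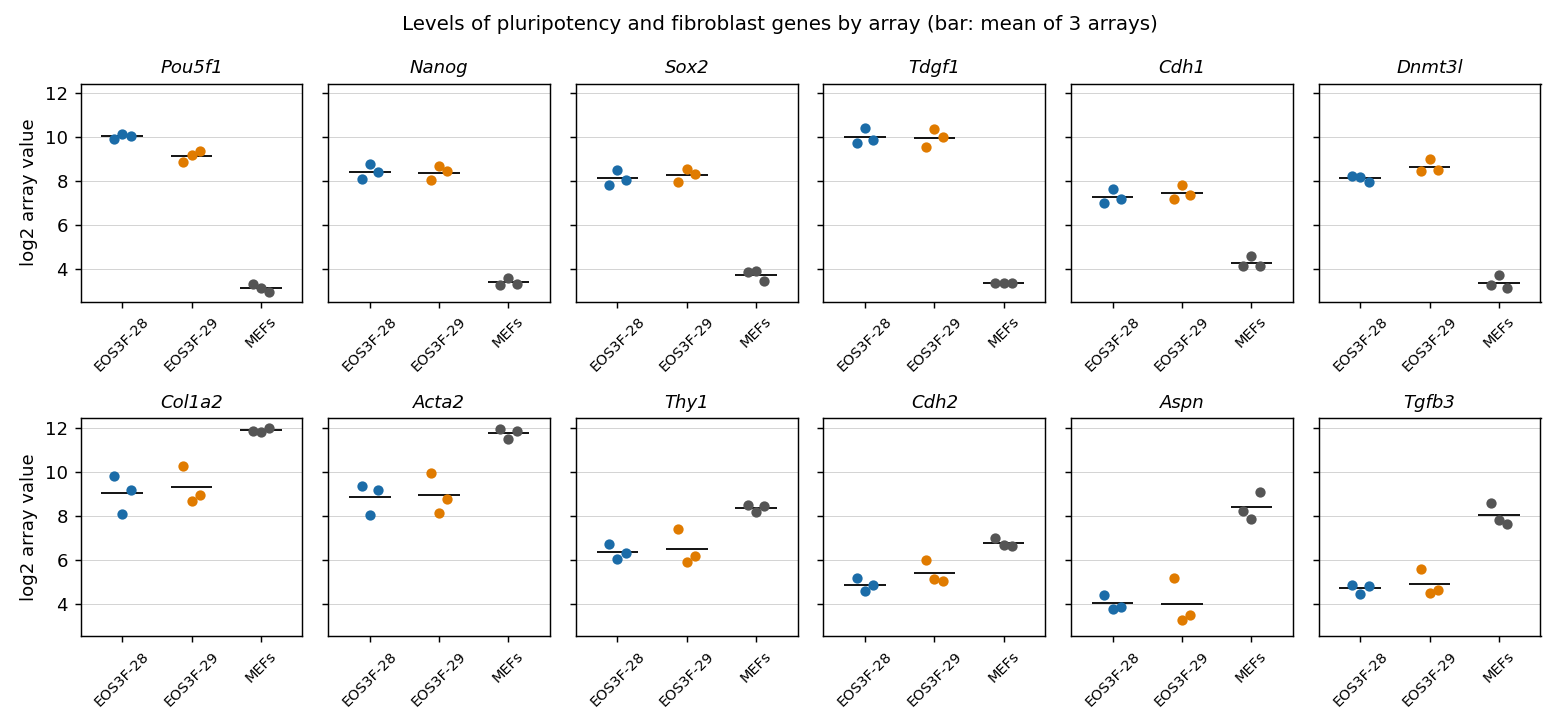
Log2 array values of 12 genes (vertical axis) in the 3 arrays of EOS3F-28, EOS3F-29 and MEFs, 1 point per array with a bar at each mean of 3 arrays. Genes of pluripotent cells (Pou5f1, Nanog, Sox2, Tdgf1, Cdh1, Dnmt3l) and of fibroblasts (Col1a2, Acta2, Thy1, Cdh2, Aspn, Tgfb3) separated the groups without overlap, and the highest full iPS value of all 6 fibroblast genes was in EOS3F-29.

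All 14 measured secreted and RNA-binding factors of pluripotent cells rose at least 2-fold (median 2.72). Tdgf1, which encodes the Nodal co-receptor Cripto, showed the largest rise of all named genes. It lay at 9.55, 9.94 and 10.41 in full iPS arrays, against 3.38, 3.38 and 3.40 in MEFs, a 97.0-fold difference (6.60 ± 0.31, adjusted p = 4.27e-11). Dppa5a, an RNA-binding protein gene, rose by 6.17 ± 0.25 and Trh, the gene of thyrotropin-releasing hormone, by 5.20 ± 0.21. Lin28a, whose product blocks the maturation of let-7 microRNA, lay at 6.26, 6.4 and 6.54 in full iPS arrays, against 3.66, 3.58 and 3.71 in MEFs (2.75 ± 0.14, adjusted p = 1.02e-10). Hmga2, a let-7 target in mammals, went the other way, at 5.45, 6.48 and 7.32 in full iPS arrays, against 7.77, 7.46 and 7.41 in MEFs (-1.10 ± 0.31, adjusted p = 0.00937). The fall of Hmga2 was not called without MEF replicate 1 (adjusted p = 0.0519). Further large rises among single genes were those of Pla2g1b, a secreted phospholipase gene (5.10 ± 0.14), the X-linked Bex1 (5.05 ± 0.21) and Bex4 (5.0 ± 0.12), L1td1, which encodes an RNA-binding protein derived from a transposon (4.24 ± 0.22), and Dppa2 (4.05 ± 0.17).

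Surface markers used to follow reprogramming by flow cytometry changed in opposite directions. Of 12 markers of pluripotent cells 10 rose and 0 fell, and of 15 fibroblast surface markers 11 fell and 0 rose, against 17.8% of all genes that fell. Epcam, an epithelial adhesion molecule, lay at 7.08, 7.42 and 7.94 in full iPS arrays, against 3.41, 4.14 and 2.99 in MEFs (3.95 ± 0.24). Thy1, the surface antigen whose loss marks the first reprogramming cells, lay at 5.91, 6.23 and 7.41 in full iPS arrays, against 8.47, 8.17 and 8.45 in MEFs (-1.94 ± 0.31, adjusted p = 8.05e-05). The 6 full iPS arrays of Thy1 spanned a wider range than those of Epcam, and the highest was EOS3F-29 replicate 1. Pdgfrb, a receptor of platelet-derived growth factor, fell by 2.78 ± 0.35, while its relative Pdgfra was at -1.04 (adjusted p = 0.0758). The kinase receptor gene Kit rose by 1.75 ± 0.26 and Alpl, the alkaline phosphatase used as a stain for pluripotent colonies, by 1.71 ± 0.16.

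MicroRNA precursor transcripts of the miR-302 cluster and some of the miR-17 family clusters were higher in full iPS lines. The mature sequences of 4 of them are shown because they form 2 pairs that share a seed, the bases 2 to 8 that pair with target mRNA, which is in capitals below (5′ to 3′, from RefSeq, GRCm38.p6). The first lies at chr3:127545275-127545297, the second at chr3:127545665-127545687, the third at chr3:127545779-127545800 and the fourth at chrX:52741697-52741718 on the minus strand, the others on the plus strand.
mmu-miR-302b-3p: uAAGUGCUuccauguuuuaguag
mmu-miR-302d-3p: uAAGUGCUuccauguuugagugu
mmu-miR-367-3p: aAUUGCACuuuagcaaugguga
mmu-miR-363-3p: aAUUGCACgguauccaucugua
The seed AAGUGCU is common to miR-302b and miR-302d. The seed AUUGCAC is common to miR-367, of the miR-302 cluster, and miR-363, whose gene is on the X chromosome. The array reads the precursor or the transcript that holds it, not the mature RNA. Of 17 measured precursors of pluripotent cells 11 rose and 0 fell (64.7%), 7 of them at least 2-fold, with a median of 0.74. All 11 were dim, with a mean under 5 over all arrays, so none of them was tested with dim genes left out.

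Mir302b lay at 5.05, 3.32 and 4.45 in EOS3F-28 and 5.25, 3.33 and 4.63 in EOS3F-29, against 2.46, 2.23 and 2.5 in MEFs (1.94 ± 0.37, adjusted p = 0.000489). Replicate 2 was the lowest array of each line, as it was for the fibroblast markers, and the 2 lines ran closely side by side. In J1 ES cells the same probe set stood at 2.59, 2.27 and 2.42. Mir302c rose by 1.22, Mir302d by 0.93, Mir302a by 0.74 and Mir367 by 0.60. From the cluster on chromosome 14, Mir18 rose by 1.18, Mir20a by 1.12, Mir19b-1 by 1.07 and Mir19a by 1.04. Mir17 (0.40) and Mir20b (0.19) were not called. Of 38 precursors of fibroblasts 9 fell (23.7%, against 17.8% of all genes) and 0 rose, with a median of -0.14. Mir145a, known from human ES cells as a repressor of pluripotency factors, fell by 1.49 ± 0.19 and its neighbour Mir143 by 0.73 ± 0.17. Under housekeeping centring 1 member of this list was called lower and 9 were called higher.

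The DNA methylation machinery changed composition. Of 16 genes 10 rose (62.5%) and 5 fell (31.2%), against 17.1% and 17.8% of all genes. Dnmt3l, the catalytically inactive partner that stimulates de novo methylation, lay at 7.98, 8.33 and 9.0 in full iPS arrays, against 3.29, 3.73 and 3.13 in MEFs (5.01 ± 0.16, adjusted p = 3.31e-13). Tet1, which oxidises methylcytosine, rose by 3.71 ± 0.17, a difference seen in all 3 of its probe sets, the de novo methyltransferase gene Dnmt3b by 3.17 ± 0.14, and Hells, which encodes a remodeller needed for methylation of repeats, by 2.18 ± 0.18. Zfp57, a zinc finger gene that guards methylation at imprinted loci, rose by 2.12. Readers of methylated DNA were among the falls, led by Mbd2 (-1.03 ± 0.17) and Zbtb38 (-0.95 ± 0.14). Housekeeping centring gave 2 falls, and 3 were called with either line alone and without EOS3F-29 replicate 3, MEF replicate 1 or MEF replicate 2. Methylation itself was not measured.

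Chromatin regulators changed mostly upward, by smaller differences. Of 43 histone modifiers and chromatin factors 24 rose (55.8%) and 4 fell (9.3%), with a median of 0.59. Of all genes 17.1% rose and 17.8% fell. Under housekeeping centring 31 members were called higher and 2 lower. Jarid2, a subunit that guides polycomb repressive complex PRC2, lay at 7.75, 7.99 and 8.32 in full iPS arrays, against 5.06, 5.38 and 5.14 in MEFs (2.83 ± 0.13, adjusted p = 3.12e-11). Mtf2, another PRC2 guide, rose by 2.17 ± 0.17 and the PRC1 subunit gene Phc1 by 2.64 ± 0.17, while Bmi1, a PRC1 subunit known for the repression of the Ink4a locus, fell by 1.33 ± 0.21. Cdkn2a at that locus was at 0.15 (adjusted p = 0.619). Kdm5b, a histone H3K4 demethylase gene, rose by 1.66 ± 0.16. Among histone variants and chaperones 7 of 16 rose (43.8%) and 2 fell (12.5%), or 10 and 2 under housekeeping centring. The rises included H2ac1 (2.53 ± 0.14) and Nasp, a chaperone of H3 and H4 (2.16 ± 0.17).

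BAF chromatin remodellers swap subunits between cell types, and ES cells are known for a form with Smarcc1 and Smarcd1 in place of Smarcc2 and Smarcd3. Of 24 BAF genes 5 rose (20.8%), 7 fell (29.2%) and 12 were not called (median 0.03). Of all genes 17.1% rose and 17.8% fell. Smarcd1 lay at 6.28, 6.37 and 6.63 in full iPS arrays, against 5.22, 5.51 and 4.97 in MEFs (1.19 ± 0.11), and Smarcc2 at 5.30, 5.44 and 5.97 against 6.17, 6.68 and 6.31 (-0.88 ± 0.15). These 2 separated the groups without overlap. Smarcc1 rose by 0.49 ± 0.12 with overlapping arrays, Smarcd3 fell by 0.50 ± 0.10, and Smarca2, the ATPase gene that ES cells lack in favour of Smarca4, was at -0.22 (adjusted p = 0.385), or called lower without the replicate 1 arrays (-0.40, adjusted p = 0.0421). Without EOS3F-29 replicate 2, MEF replicate 1 or MEF replicate 2 the list had 3 rises. Actl6a, the actin-like subunit of dividing cells, rose by 1.23 ± 0.15. Under housekeeping centring 12 members were called higher and 1 lower, and Smarcd3 was at -0.08 (adjusted p = 0.705).

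Germline genes were higher in full iPS lines, from low levels. Of 29 measured genes of germ cells and meiosis 22 rose and 0 fell (75.9%), 14 at least 2-fold, with a median of 0.91. Tdrd12, of the piRNA pathway that silences transposons, lay at 5.71, 6.57 and 7.31 in full iPS arrays, against 3.73, 3.24 and 3.55 in MEFs (3.03 ± 0.21, adjusted p = 1.03e-08). Sycp3, a structural protein gene of the meiotic chromosome axis, lay at 3.72, 5.84 and 4.71 in EOS3F-28 and 4.03, 5.48 and 4.35 in EOS3F-29, against 2.85, 2.79 and 2.83 in MEFs (1.86 ± 0.35). The highest array of each line was replicate 2, the one with the least fibroblast marker signal, and no full iPS array of Sycp3 overlapped the MEFs. Syce2, of the synaptonemal complex, rose by 1.87 ± 0.23 and Ddx4, which encodes the germ cell helicase Vasa, by 1.54 ± 0.24. With genes of a mean under 5 left out, 3 members were called higher.

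Many of these genes share a short motif within the 250 bases before their start. The E-box CACGTG, the same on both strands, was found in the 250 bases before the start of 14 of 27 germline genes with a promoter in the table (51.9%), against 1266 of 15613 measured genes (8.11%). It was present in 12 of the 21 called genes and 2 of the 6 not called. Stretches around it are shown for 4 called genes to show its place and its neighbouring bases (RefSeq, GRCm38.p6, each on the gene's own strand, E-box in capitals). They lie at chr8:84872140-84872205 for Syce2, chr10:88459493-88459558 for Sycp3, chr13:112652311-112652369 for Ddx4 on the minus strand and chr3:95559590-95559655 for Hormad1, the others on the plus strand.
Syce2: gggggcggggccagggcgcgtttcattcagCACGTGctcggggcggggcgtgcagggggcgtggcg
Sycp3: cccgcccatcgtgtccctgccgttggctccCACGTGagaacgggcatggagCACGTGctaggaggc
Ddx4: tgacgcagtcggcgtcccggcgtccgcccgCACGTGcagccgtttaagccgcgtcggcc
Hormad1: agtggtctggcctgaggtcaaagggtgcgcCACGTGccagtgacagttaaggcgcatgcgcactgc
Sycp3 holds the motif 2 times in this stretch. In the 4 genes shown the matches lie between 24 and 88 bases before the start. Those of Mael and Stag3, not shown, lie farther, at 218 to 223 and 165 to 170 bases. The motif was chosen with the results known, the match is a description, and no binding was measured.

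Epithelial genes were higher and mesenchymal genes lower in full iPS lines. Of 26 epithelial adhesion and splicing genes 21 rose and 0 fell (80.8%, median 0.85), and of 24 mesenchymal transition regulators 21 fell and 0 rose (87.5%, median -1.25). Both classical cadherins changed. Cdh1, E-cadherin, lay at 7.0, 7.29 and 7.82 in full iPS arrays, against 4.15, 4.61 and 4.14 in MEFs (3.07 ± 0.16, adjusted p = 3.19e-10). Cdh2, N-cadherin, lay at 4.59, 5.09 and 6.01, against 6.99, 6.70 and 6.63 in MEFs (-1.63 ± 0.20, adjusted p = 5.42e-06). Neither gene overlapped between the groups.

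Tight junction and epithelial protease genes moved with E-cadherin. The embryonic claudin gene Cldn6 rose by 3.03 ± 0.21, the protease inhibitor gene Spint2 by 2.80 ± 0.22, Esrp1, a splicing factor of epithelial cells, by 2.55 ± 0.19, and Cldn4 by 1.99 ± 0.38. On the mesenchymal side Tgfb3, a TGF-β ligand gene, lay at 4.46, 4.73 and 5.58 in full iPS arrays, against 8.60, 7.82 and 7.65 in MEFs (-3.21 ± 0.24, adjusted p = 2e-08). Tgfb2 fell by 2.10 ± 0.16, Snai2, which represses E-cadherin, by 1.89 ± 0.31, and Runx1 by 1.86 ± 0.23. Vim, the intermediate filament vimentin, fell by 1.22 ± 0.21 and was still at 10.07 or higher in all 6 full iPS arrays. EOS3F-29 replicate 1 was the highest full iPS array for all 24 mesenchymal regulators, and 21 were also called lower without the replicate 1 arrays.

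Splicing regulators moved in both directions. Of 19 genes listed for ES cells or fibroblasts 4 rose (21.1%), 7 fell (36.8%) and 8 were not called (median 0.12). Of all genes 17.1% rose and 17.8% fell. Under housekeeping centring 10 rose and 5 fell, with 8 rises without MEF replicate 2 and 2 without MEF replicate 3. Mbnl1, which represses the splice forms of pluripotent cells, lay at 5.32, 6.15 and 6.84 in full iPS arrays, against 8.11, 8.26 and 7.91 in MEFs (-1.99 ± 0.30, adjusted p = 4.87e-05). Its relatives Mbnl2 (-1.30 ± 0.16) and Mbnl3 (-1.13 ± 0.11) fell too, as did Celf2 (-1.51 ± 0.11). A second, dimmer probe set of Celf2 was at -0.14. Rbm47, an RNA-binding protein gene of epithelial and endodermal tissue, rose by 1.68 ± 0.14 and the neuronal family member Elavl2 by 1.35 ± 0.09. Splice forms themselves were not analysed here.

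**Figure D2:**
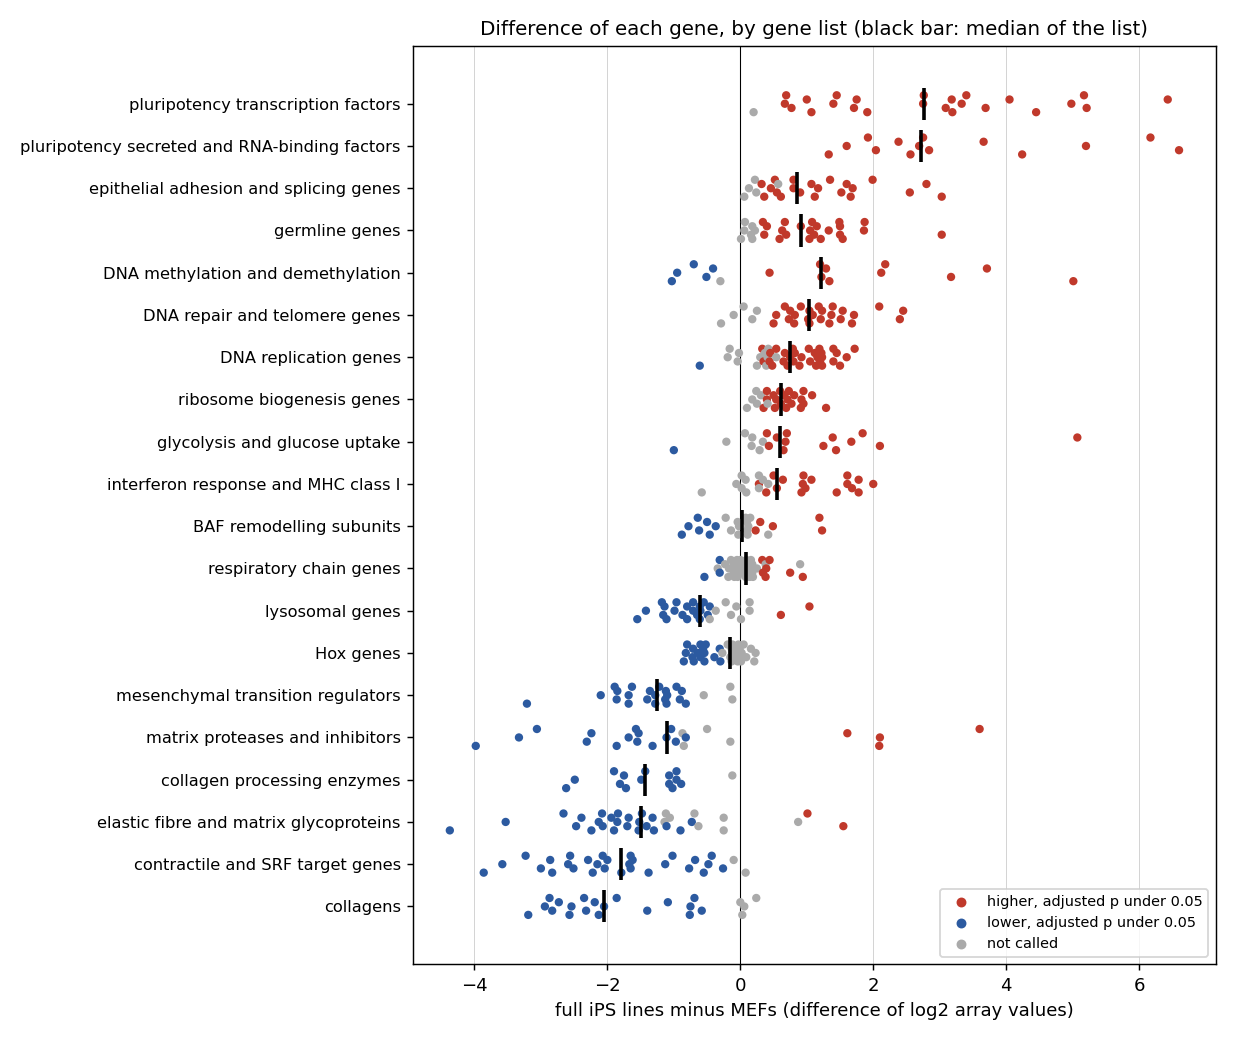
Difference of each gene between full iPS lines and MEFs (horizontal axis, log2 scale) for 20 gene lists, 1 point per gene, red where it rose, blue where it fell and grey where it was not called, with a black bar at the list's median. Medians ran from 2.76 for pluripotency transcription factors to -2.05 for collagens, and lists of the respiratory chain and of BAF subunits centred near 0.

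Extracellular matrix genes were lower in full iPS lines. Of 23 collagen genes 19 fell and 0 rose (82.6%, against 17.8% of all genes), 15 at least 2-fold, with a median of -2.05. Col1a2, a chain of type I collagen, lay at 8.08, 9.05 and 10.24 in full iPS arrays, against 11.87, 11.81 and 11.97 in MEFs (-2.73 ± 0.46, adjusted p = 0.000138). Its partner Col1a1 fell by 2.94 ± 0.45, the type III gene Col3a1 by 2.87 ± 0.50, the type V gene Col5a2 by 3.19 ± 0.50 and the type VI gene Col6a3 by 2.83 ± 0.26. The full iPS arrays of Col1a2 spread over more than 2 log2 units, with EOS3F-29 replicate 1 the highest and EOS3F-28 replicate 2 the lowest. Without the replicate 1 arrays the list again had 19 falls and 0 rises.

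Enzymes that build the collagen fibre fell with it. Of 15 collagen processing enzymes 14 fell and 0 rose (median -1.43), with only Plod2 not called. Serpinh1, the collagen chaperone Hsp47, lay at 5.21, 6.06 and 7.19 in full iPS arrays, against 8.79, 8.94 and 8.54 in MEFs (-2.62 ± 0.35). The cross-linking oxidase genes Loxl1 (-2.49 ± 0.38) and Lox (-1.90 ± 0.27) and the procollagen protease gene Bmp1 (-1.81 ± 0.27) fell as well. Of 34 elastic fibre and matrix glycoprotein genes 24 fell and 2 rose (median -1.5), or 29 fell without the replicate 1 arrays. Aspn, a small leucine-rich proteoglycan that binds collagen and TGF-β, was the largest fall among the named genes. It lay at 4.43, 3.78 and 3.87 in EOS3F-28 and 5.20, 3.28 and 3.5 in EOS3F-29, against 8.23, 7.84 and 9.09 in MEFs (-4.37 ± 0.43, adjusted p = 4.46e-07), a level 20.7-fold higher in MEFs. The elastic fibre gene Fbln5 fell by 3.53 ± 0.49, the matricellular gene Postn by 2.66 ± 0.43 and Fbn2, a fibrillin, by 2.47 ± 0.15.

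Falls of similar size were spread over other secreted and signalling genes of fibroblasts. Ccdc80, a matrix-associated protein gene, fell by 4.03 ± 0.36, Rgs4, which encodes a brake on G protein signalling, by 3.57 ± 0.14, and Ptn, the heparin-binding growth factor pleiotrophin, by 3.44 ± 0.46. Lrrc17 fell by 3.32 ± 0.14 and Ccn4, a Wnt-inducible matricellular gene, by 3.29 ± 0.40. The full iPS arrays of Rgs4 lay close together, between 3.95 and 4.50, and those of Lrrc17 between 3.61 and 4.13, while those of Ptn spread from 3.94 to 5.91.

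The contractile programme driven by serum response factor (SRF) was lower almost as a whole. Of 31 contractile and SRF target genes 29 fell and 0 rose (93.5%), 23 at least 2-fold, with a median of -1.79. Acta2, smooth muscle actin, lay at 8.03, 8.98 and 9.96 in full iPS arrays, against 11.92, 11.47 and 11.83 in MEFs (-2.83 ± 0.47, adjusted p = 0.000134). Actg2, another smooth muscle actin, fell by 3.86 ± 0.32, the myosin light chain gene Myl9 by 3.58 ± 0.45, Cnn1, calponin, by 3.23 ± 0.21 and Tagln, transgelin, by 3.0 ± 0.44. Srf itself fell by 0.77 ± 0.14 (adjusted p = 0.000219), a call that housekeeping centring ended (-0.35, adjusted p = 0.116). Without the replicate 1 arrays 27 of the 31 fell. The 2 genes not called were Csrp2 (0.08) and the SRF cofactor gene Myocd (-0.10).

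SRF binds the CArG box, a run of A and T between CC and GG. It was searched by exact letters on both strands of the 250 bases before each start. A box was present in 5 of 26 contractile and SRF target genes with a listed promoter (19.2%), against 227 of 15613 measured genes (1.45%). All 26 genes were called, so no uncalled genes were left to compare. The list was chosen to hold SRF targets, so a higher share follows from that choice and is only a description. SRF binding was not measured. The 3 stretches shown are those of Myl9, Cnn2 and Srf, since the last is itself a gene of the group (RefSeq, GRCm38.p6, gene's own strand, CArG boxes in capitals). They lie at chr2:156775273-156775342 and chr10:79988514-79988583 on the plus strand and chr17:46556205-46556274 on the minus strand.
Myl9: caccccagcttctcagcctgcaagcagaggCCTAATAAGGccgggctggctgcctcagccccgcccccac
Cnn2: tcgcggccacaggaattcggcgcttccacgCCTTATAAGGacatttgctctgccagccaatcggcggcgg
Srf: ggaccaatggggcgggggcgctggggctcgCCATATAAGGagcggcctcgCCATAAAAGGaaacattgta
Srf holds 2 CArG boxes in this stretch, Myl9 and Cnn2 hold 1 each. Cnn2 fell by 2.86. The CCAAT box, searched on both strands as CCAAT, was present in 65.4% of the 26 contractile and 38.8% of all promoters.

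Coat genes of caveolae, the membrane pits that buffer stretch, were lower. Of 9 caveola genes 8 fell, led by Cav1 (-2.60 ± 0.31), Cavin2 (-2.48 ± 0.44), Ehd2 (-2.45 ± 0.41) and Cavin3 (-2.07 ± 0.26). Cav1 lay at 5.26, 5.59 and 6.75 in full iPS arrays, against 8.62, 8.14 and 8.42 in MEFs, with no overlap.

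Matrix proteases moved in both directions. Of 23 proteases and inhibitors 15 fell (65.2%) and 4 rose (17.4%), with a median of -1.11. Of all genes 17.8% fell and 17.1% rose. The falls included the aggrecanase genes Adamts5 (-3.98 ± 0.35), Adamts1 (-3.33 ± 0.35) and Adamts12 (-3.06 ± 0.28) and the membrane protease gene Mmp14 (-2.31 ± 0.31). Mmp2, a secreted gelatinase gene, fell by 0.97. The 4 rises were those of other secreted matrix metalloproteinases: Mmp3 (3.6 ± 0.49), Mmp13 (2.10 ± 0.45), Mmp10 (2.09 ± 0.20) and Mmp9 (1.61 ± 0.29). Mmp3 lay at 9.31, 7.71 and 8.60 in EOS3F-28 and 9.64, 8.0 and 8.31 in EOS3F-29, against 4.16, 5.45 and 5.38 in MEFs (adjusted p = 1.65e-05). Every full iPS array was thus at least 2 log2 units above every MEF array.

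The rise of Mmp3 ran with the fibroblast marker signal across the full iPS arrays. Mmp3 was highest in replicate 1, lowest in replicate 2 of each line, and so were the 9 fibroblast markers in EOS3F-28 and EOS3F-29. In feeder-grown J1 cells Mmp3 lay at 9.80, 7.74 and 8.92, in the order of their marker means. Dcn, the collagen-binding proteoglycan decorin, rose by 1.55 ± 0.35 while most of its list fell. Its values of 9.70, 8.64 and 9.25 in EOS3F-28 and 10.56, 9.14 and 9.17 in EOS3F-29, against 7.84, 7.61 and 8.11 in MEFs, had the same highest array in each line. The neutrophil chemokine gene Cxcl5 lay at 8.96, 7.36 and 8.46 and at 10.19, 7.71 and 8.43 in the 2 lines, against 4.44, 7.25 and 5.82 in MEFs (2.68 ± 0.73, adjusted p = 0.00784), a call lost without MEF replicate 1 (1.98, adjusted p = 0.0771). The part that RNA of the feeder cells had in the rises of Mmp3, Dcn and Cxcl5 was not tested.

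**Figure D3:**
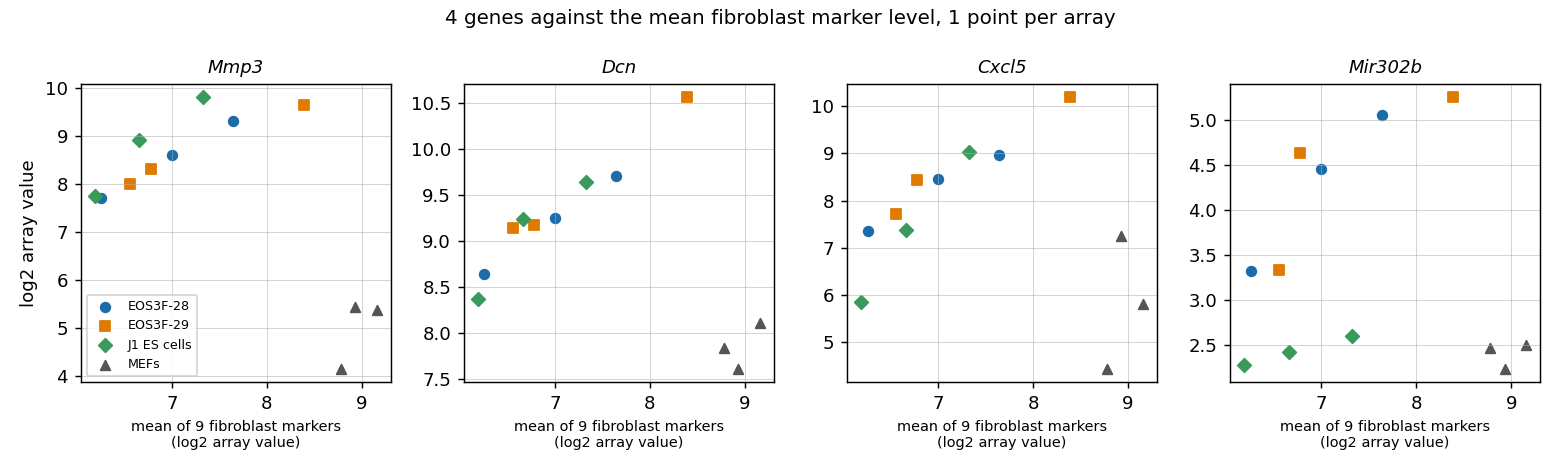
Log2 array values of Mmp3, Dcn, Cxcl5 and Mir302b (vertical axes) against the mean of 9 fibroblast markers (horizontal axis, log2), 1 point per array of EOS3F-28, EOS3F-29, J1 ES cells and MEFs. Within the full iPS arrays the 4 genes were highest in the EOS3F-29 array with the highest marker mean of 8.39, while the MEF arrays, with marker means of 8.78 to 9.16, lay below all full iPS arrays for each gene, by a small margin for Cxcl5 (7.36 in the lowest full iPS array, against 7.25 in the highest MEF array).

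Interferon response genes were higher in full iPS cultures. Of 27 interferon and MHC class I genes 17 rose and 0 fell (63.0%, median 0.55), or 16 and 1 without the replicate 1 arrays. Ifit1, an antiviral RNA-binding protein gene, lay at 6.05, 4.69 and 5.68 in EOS3F-28 and 7.19, 4.74 and 5.51 in EOS3F-29, against 3.43, 3.39 and 4.11 in MEFs (2.00 ± 0.58, adjusted p = 0.0113). Bst2, which encodes tetherin, rose by 1.78 ± 0.20, Oasl2 by 1.78 ± 0.27 and Usp18, a brake on interferon signalling, by 1.68 ± 0.34. EOS3F-29 replicate 1 was the highest full iPS array for 77.8% of the list, against 25.7% of all genes. The list's mean was 5.41, 5.25 and 5.26 in EOS3F-28 and 5.98, 5.36 and 5.33 in EOS3F-29. Replicate 1 was thus highest in each line, as for the fibroblast markers, while replicates 2 and 3 hardly differed. The part of the fibroblast marker signal in these rises was not tested.

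LIF and cytokine genes were mixed, with 5 of 18 higher and 5 lower (27.8% each way, against 17.1% and 17.8% of all genes). Il6st, the receptor subunit gp130 through which LIF signals, lay at 6.67, 6.98 and 7.80 in full iPS arrays, against 8.77, 8.66 and 9.37 in MEFs (-1.86 ± 0.23), and Stat3 fell by 0.93 ± 0.13. Socs3, the feedback inhibitor that Stat3 induces, rose by 0.77 ± 0.13, with its other probe set at 0.19. None of these 3 genes overlapped between the groups. Ptx3, a soluble pattern receptor gene of stromal cells, fell by 3.01 ± 0.35 and the chemokine gene Cxcl12 by 1.88 ± 0.30. Without the replicate 1 arrays 3 rises and 7 falls were called, and without MEF replicate 1 or 3 the rises also numbered 3. Housekeeping centring gave 7 rises and 4 falls.

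Genes of DNA replication and repair were higher as groups. Of 43 replication genes 31 rose and 1 fell (72.1%, median 0.75), and of 30 repair and telomere genes 25 rose and 0 fell (83.3%, median 1.04). Cdt1, which loads the replicative helicase, lay at 7.48, 7.87 and 8.08 in full iPS arrays, against 6.04, 6.80 and 5.42 in MEFs (1.72 ± 0.21, adjusted p = 6.89e-06). The MEF arrays of this group were uneven: the list's mean was 6.09, 6.37 and 5.70 in MEFs, and between 6.60 and 7.05 in full iPS arrays. Mcm10 rose by 1.60 ± 0.15, the helicase subunit gene Mcm3 by 1.5 ± 0.17 and Orc1, of the origin recognition complex, by 1.45 ± 0.14. The 1 fall was Rrm1, a ribonucleotide reductase subunit gene (-0.61 ± 0.16), which was not called without MEF replicate 1 or 2 or under housekeeping centring.

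Repair genes had the larger differences. Rif1, which times replication and protects telomeres, lay at 6.71, 6.99 and 7.41 in full iPS arrays, against 4.53, 5.28 and 3.98 in MEFs (2.45 ± 0.21, adjusted p = 1.32e-07). Msh6, of mismatch repair, rose by 2.40 ± 0.14, Xrcc5, which encodes the end-binding protein Ku80, by 2.09 ± 0.18 and Terf1, a telomere-binding protein gene, by 1.71 ± 0.17. Tert, the catalytic telomerase subunit, rose by 0.67.

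Replication genes are known targets of E2F factors. The E2F letters TTTCCCGC or TTTGGCGC, on either strand, were found before the start of 7 of 35 replication genes, against 333 of 15613 measured genes (2.13%), in 5 of the 26 called and 2 of the 9 not called. The stretches of 3 genes of the MCM helicase are shown (RefSeq, GRCm38.p6, gene's own strand, E2F letters in capitals), at chr5:138172011-138172078 and chr1:128359778-128359845 on the minus strand and chr8:75109330-75109397 on the plus strand.
Mcm7: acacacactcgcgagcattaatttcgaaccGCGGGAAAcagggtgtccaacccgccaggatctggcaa
Mcm6: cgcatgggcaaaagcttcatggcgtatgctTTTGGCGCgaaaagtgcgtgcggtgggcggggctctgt
Mcm5: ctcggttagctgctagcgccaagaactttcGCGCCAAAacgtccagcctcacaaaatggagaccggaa
Mcm7 rose by 1.40, Mcm5 by 1.20 and Mcm6 by 1.19. In Mcm7 and Mcm5 the letters read on the opposite strand. The motif was chosen with the results known, and E2F binding was not measured.

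Cell cycle regulators moved singly. Of 36 cyclins, kinases and inhibitors 6 rose (16.7%), 8 fell (22.2%) and 22 were not called (median -0.09). These shares were near the 17.1% and 17.8% of all genes. Ccne1, cyclin E1 of S phase entry, lay at 7.93, 8.40 and 8.64 in full iPS arrays, against 6.70, 6.67 and 6.34 in MEFs (1.79 ± 0.18, adjusted p = 5.47e-07). Ccnf rose by 1.45 ± 0.16 and the phosphatase gene Cdc25a by 1.08 ± 0.15. Ccnd2, cyclin D2 of G1, fell by 1.5 ± 0.36 and Cdkn2c, a CDK4 inhibitor gene, by 1.26 ± 0.13. Under housekeeping centring 15 rose. The number of falls lay between 3 and 5 under housekeeping centring, with only the compared arrays, with either line alone and without EOS3F-29 replicate 3, MEF replicate 1 or MEF replicate 2. Among 22 p53 and apoptosis genes 5 rose (22.7%) and 7 fell (31.8%), or 10 and 3 under housekeeping centring. The falls were led by Casp12 (-1.76 ± 0.26), the necroptosis kinase gene Ripk3 (-1.53 ± 0.15) and Casp8 (-1.19 ± 0.20), and the rises by Perp, a desmosomal p53 target (1.62 ± 0.14). Ripk3 lay at 6.65 to 7.23 in full iPS arrays, against 8.30 to 8.37 in MEFs.

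Metabolic genes separated glucose use from fibroblast lipid and lysosomal genes. Of 20 glycolysis genes 13 rose and 1 fell (65.0%, median 0.60). Slc2a3, the high-affinity glucose transporter GLUT3, lay at 9.18, 9.86 and 10.70 in full iPS arrays, against 4.56, 4.94 and 5.10 in MEFs, 33.5-fold (5.07 ± 0.33, adjusted p = 3.6e-09). Aldoc, an aldolase gene, lay at 5.43, 7.31 and 6.28 in EOS3F-28 and 5.36, 7.34 and 6.36 in EOS3F-29, against 3.85, 3.94 and 4.93 in MEFs (2.10 ± 0.58), with replicate 2 highest in both lines. Pdk1, which closes pyruvate to the mitochondrion, rose by 1.84 ± 0.24 and Ldhb by 1.67 ± 0.21. The fall was that of the muscle enolase gene Eno3 (-1.0 ± 0.15). Of 41 respiratory chain genes 7 rose (17.1%, the same share as of all genes) and 3 fell (7.32%), or 22 and 0 under housekeeping centring. As deposited they had no 2-fold difference and a median of 0.08, and the rises numbered 3 without MEF replicate 1 and 2 without MEF replicate 3.

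**Figure D4:**
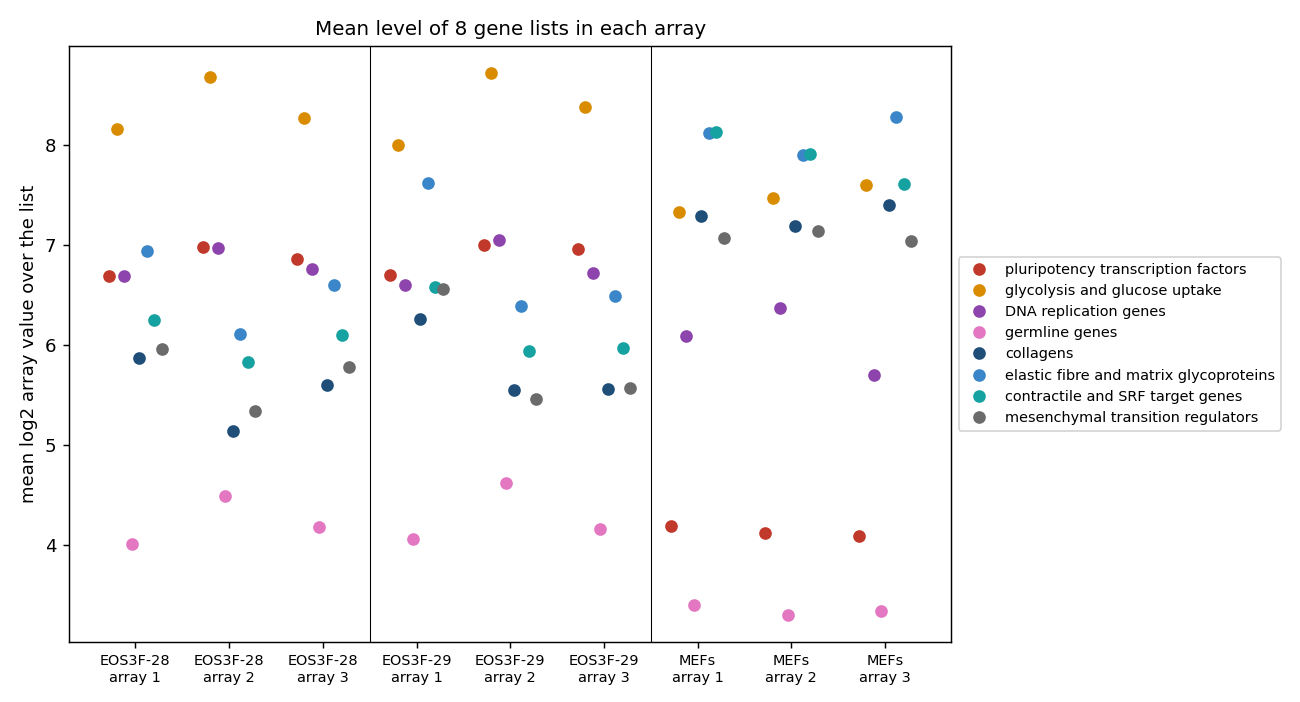
Mean log2 array value over 8 gene lists (vertical axis) in each of the 6 full iPS arrays and the 3 MEF arrays, 1 point per list and array. Collagen means ran from 5.14 to 6.26 in full iPS arrays, against 7.19 to 7.40 in MEFs, and glycolysis means from 8.0 to 8.72 in full iPS arrays, against 7.33 to 7.60 in MEFs, with replicate 2 highest for glycolysis and lowest for collagens in each line.

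Genes of one-carbon metabolism moved in both directions. Of 21 genes for threonine, serine and one-carbon metabolism 9 rose (42.9%) and 7 fell (33.3%), or 11 and 5 under housekeeping centring. Of all genes 17.1% rose and 17.8% fell. Gldc, the glycine decarboxylase gene, lay at 6.46, 6.86 and 7.14 in full iPS arrays, against 3.39, 3.63 and 3.45 in MEFs (3.33 ± 0.15, adjusted p = 4.24e-11), and Amt of the same glycine cleavage system rose by 2.19 ± 0.14. The cytosolic folate enzyme genes Shmt1 (1.57 ± 0.12) and Mthfd1 (1.31 ± 0.10) rose. Among folate enzyme genes of the mitochondrion Shmt2 fell by 0.97 ± 0.17, Mthfd2 by 1.03 ± 0.14 and Aldh1l2 by 3.18 ± 0.17, while Mthfd1l was at -0.18 and not called. Aldh1l2 lay at 3.92 to 4.47 in full iPS arrays, against 7.07 to 7.86 in MEFs. Phgdh, the entry enzyme of serine synthesis, fell by 1.34 ± 0.16.

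Among 21 amino acid transporters 4 rose and 10 fell, or 7 and 7 under housekeeping centring. The rises were led by Slc38a5, a glutamine and serine carrier gene (2.89 ± 0.18), and Slc7a7 (1.71 ± 0.15). Slc6a9, the glycine transporter GLYT1, fell by 1.68 ± 0.13, Slc1a4 by 1.45 ± 0.13 and the cystine carrier gene Slc7a11 by 1.20 ± 0.30. Of 29 sterol, lipid and retinoid genes 17 fell (58.6%) and 3 rose (10.3%), with a median of -0.47. There were 10 falls and 5 rises under housekeeping centring, and 17 and 1 without MEF replicate 1. Lpl, lipoprotein lipase, fell by 2.21 ± 0.14, Fabp5 by 2.04 ± 0.15 and Cyp1b1 by 2.33 ± 0.46. Apoe, apolipoprotein E, was the clear exception, at 7.95, 8.45 and 9.0 in full iPS arrays, against 6.04, 6.32 and 6.13 in MEFs (2.32 ± 0.20, adjusted p = 9.39e-08).

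Ribosome biogenesis and lysosomal genes took opposite directions. Of 26 ribosome biogenesis genes 20 rose and 0 fell (76.9%, median 0.60), 2 of them at least 2-fold: Polr1b, an RNA polymerase I subunit gene (1.29 ± 0.19), and Wdr43 (1.08 ± 0.13). Of 30 lysosomal genes 20 fell and 2 rose (66.7% lower, median -0.61), a direction that weakened to 9 falls under housekeeping centring. The tetraspanin gene Cd63 fell by 1.55 ± 0.29, the proton pump subunit gene Atp6ap1 by 1.42 ± 0.18 and Lipa, acid lipase, by 1.18 ± 0.23. Tfeb, the master regulator of lysosomal genes, was among the rises (0.61 ± 0.09). EOS3F-29 replicate 1 was the highest full iPS array for 80.0% of the lysosomal list. Without the replicate 1 arrays 22 members fell.

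Positional identity was measured through Hox genes and mesodermal transcription factors. Of 37 Hox genes 16 fell (43.2%) and 0 rose, none by 2-fold, with a median of -0.15. Under housekeeping centring none fell and 6 were called higher, so their direction depended on the scale. Hoxc8 lay at 4.66, 5.12 and 5.39 in full iPS arrays, against 5.81, 5.78 and 6.17 in MEFs (-0.85 ± 0.17). Of 31 mesodermal factors 15 fell (48.4%, against 17.8% of all genes) and 0 rose, or 7 and 7 under housekeeping centring. The falls of 2-fold or more were 7, led by Ebf1 (-1.99 ± 0.21), the limb and body wall factor gene Tbx15 (-1.90 ± 0.33) and Osr1 (-1.76 ± 0.18), and the homeobox gene Meis1 fell by 1.60 ± 0.20. Ebf1 lay at 4.78, 4.91 and 5.79 in full iPS arrays, against 6.94, 7.25 and 6.93 in MEFs, without overlap. Both the Hox and the mesodermal list hold many dim genes. With genes of a mean under 5 left out, 2 members of each were called lower.

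Signalling pathway genes moved in both directions. Of 31 Wnt pathway genes 7 rose and 8 fell (22.6% and 25.8%, near the 17.1% and 17.8% of all genes; median 0.02), and 4 rose without the replicate 1 arrays. Wnt5a, a ligand of the non-canonical branch, fell by 2.00 ± 0.39 and the receptor genes Fzd2 by 1.75 ± 0.17 and Fzd8 by 1.22 ± 0.13, while Lef1, a nuclear effector of β-catenin, rose by 1.43 ± 0.14. Of 19 FGF genes 7 rose and 2 fell (36.8% and 10.5%). Fgf4, the autocrine FGF of ES cells, lay at 5.77, 6.22 and 6.60 in full iPS arrays, against 4.21, 4.06 and 4.27 in MEFs (2.04 ± 0.19), and Fgf15 rose by 1.83 ± 0.14. Of 28 BMP and activin genes 12 fell and 3 rose (42.9% and 10.7%). The secreted modulator gene Fstl1 fell by 1.64 ± 0.33 and the activin receptor gene Acvr2a by 1.27 ± 0.15, against a rise of Acvr2b by 0.74 ± 0.10. In the Hedgehog pathway 3 of 10 genes fell, or 5 without EOS3F-29 replicate 1, and 2 rose. There Smo (-1.25 ± 0.18) and Gli3 (-1.19 ± 0.14) fell and the target genes Ptch1 (0.89 ± 0.20) and Gli1 (0.61 ± 0.11) rose. Housekeeping centring gave 16 rises and 5 falls for Wnt, 15 and 1 for FGF, 8 and 11 for BMP and 5 and 2 for Hedgehog genes.

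Of 24 imprinted genes 11 fell (45.8%) and 4 rose (16.7%, near the 17.1% of all genes). Under housekeeping centring 7 fell and 8 rose, so the balance of the list depended on the scale. Igf2, the paternally expressed growth factor, lay at 4.86, 5.18 and 5.86 in full iPS arrays, against 7.96, 8.76 and 7.35 in MEFs (-2.80 ± 0.24, adjusted p = 1.12e-07). Grb10, a growth inhibitor gene, fell by 2.24 ± 0.15, and Ndn and Plagl1 by 1.55 ± 0.30 and 1.35 ± 0.14. Phlda2, a placental growth inhibitor gene, rose by 2.96 ± 0.17 and the retrotransposon-derived Peg10 by 1.56 ± 0.22. The non-coding RNA Xist of the inactive X chromosome was at 4.90, 5.20 and 6.12 in full iPS arrays, against 6.89, 7.13 and 6.70 in MEFs (-1.58 ± 0.20), and the Y-linked Kdm5d fell by 1.0 ± 0.12. Another Y-linked gene, Eif2s3y, was at -0.08 and not called, and the labels give no sex.

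Genes of other lineages were low or mixed. Of 19 primitive endoderm and trophoblast markers 4 rose and 4 fell (21.1% each way, near the 17.1% and 17.8% of all genes; median 0.09), with 2 falls without MEF replicate 3. Housekeeping centring gave 11 rises and 1 fall. Tfap2c, a factor of trophoblast and early germ cells, rose most, by 1.91 ± 0.18. The intermediate filament gene Nes fell by 2.05 ± 0.17 among the neural markers, and the macrophage gene Lyz2 lay at 3.04, 3.30 and 3.93 in full iPS arrays, against 5.02, 4.55 and 6.22 in MEFs (-1.91 ± 0.27). Csf1r, which defines macrophages, was under 5 in every array of both groups. Among 16 macrophage and endothelial genes 3 rose and 4 fell (18.8% and 25.0%, near the shares of all genes). There was 1 rise without MEF replicate 1, 2 falls without MEF replicate 3, and 6 rises and 2 falls under housekeeping centring. Cd68, a lysosomal protein gene of macrophages, rose by 1.28. Tek, an angiopoietin receptor gene, rose by 1.34 ± 0.14 without the endothelial genes Cdh5 (0.14), Kdr (-0.09) or Tie1 (0.06), none of them called.

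The 2 full lines were close to each other. Between EOS3F-28 and EOS3F-29 106 genes were called (0.532% of all tested), 60 higher in EOS3F-28 and 46 higher in EOS3F-29. With the replicate number as a block, which the values but not the labels bear out for these 2 lines, 197 were called. Without 1 array of EOS3F-28 the count was 62 (replicate 1), 43 (replicate 2) or 43 (replicate 3), and 53 without EOS3F-29 replicate 2 or 55 without its replicate 3. The 46 genes higher in EOS3F-29 numbered 13, 16 and 15 without EOS3F-28 replicate 1, 2 and 3, 13 and 26 without EOS3F-29 replicate 2 and 3, 21 under housekeeping centring, 26 with dim genes left out and 11 with only the compared arrays. The 60 higher in EOS3F-28 numbered 27 to 60 without 1 array. The split of 56.6% higher in EOS3F-28 was 66.7% after cyclic loess and 72.4% after housekeeping centring, 76.1% with only the compared arrays, 52.8% with the replicate block, 46.9% with dim genes left out and 52.7% to 79.0% without 1 array. Of the 106 genes 80 were also called between full iPS lines and MEFs. Pou5f1 was the pluripotency factor among them, at 9.93, 10.13 and 10.06 in EOS3F-28 and 8.88, 9.19 and 9.36 in EOS3F-29, with both lines far above the MEFs. Slc38a5, on the X chromosome, lay at 7.80, 7.28 and 7.86 in EOS3F-28 and 5.77, 5.09 and 5.69 in EOS3F-29, against 3.80, 3.81 and 3.45 in MEFs. Genes on the X chromosome made up 4 of the 60 genes higher in EOS3F-28 (6.67%) and 11 of the 46 higher in EOS3F-29 (23.9%), against 739 of all 19937 (3.71%). These shares were not computed for the shorter lists of the other settings.

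Krtdap and Cbln1 differed between the lines in opposite directions. Krtdap, a gene of keratinocyte differentiation, lay at 6.90, 6.70 and 6.87 in EOS3F-28 and 4.15, 4.03 and 4.42 in EOS3F-29, against 2.67, 3.39 and 2.94 in MEFs. Cbln1, a synapse organiser gene, lay at 3.18, 3.68 and 3.6 in EOS3F-28 and 4.99, 5.72 and 5.29 in EOS3F-29, against 3.33, 3.63 and 3.33 in MEFs. All 3 EOS3F-28 arrays of Cbln1 lay within or next to the MEF range, and with EOS3F-29 left out its difference from MEFs was 0.06 (adjusted p = 0.867).

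**Figure D5:**
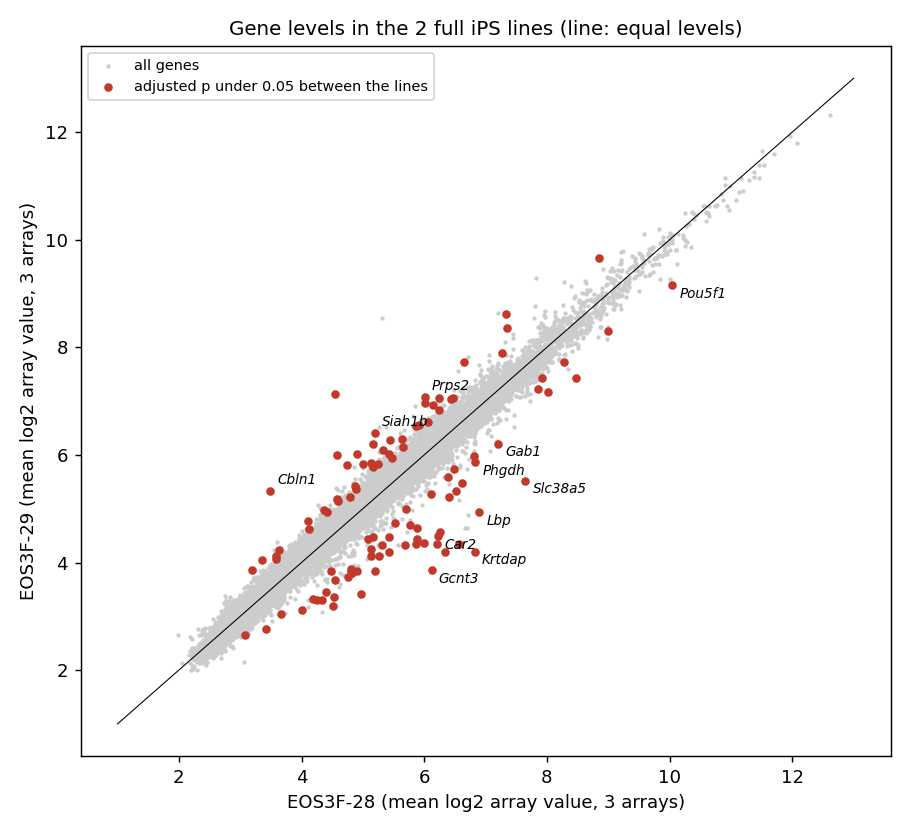
Mean log2 array value of each gene in EOS3F-28 (horizontal axis) and EOS3F-29 (vertical axis), grey for all 19937 genes and red for the 106 called between the lines, with a line of equal levels. Slc38a5, Krtdap, Gcnt3, Lbp and Car2 lay below the line, higher in EOS3F-28, and Cbln1, Siah1b and Prps2 above it, higher in EOS3F-29.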

How the data were processed

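Expression was profiled on 18 arrays, 3 for each of 6 groups. The authors deposited 1 log2 value for each probe set and array, and RMA produced them, per the submitters' processing notes. RMA corrects background, normalizes between arrays and summarises probes, so it compresses differences near background and removes a shift common to most genes. The RMA version, genome build and annotation were not given in the sources used here. Values ran from 0.678 to 13.3.

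The platform annotation gave a single symbol to 21640 of 34760 probe sets and several to 1321, and it did not list 11799, left unnamed. This made 19937 genes. Where a gene had more than 1 probe set (954 genes), the brightest on average across the 18 arrays was used. Another probe set of Crybg1 went the other way (-0.22, against 1.78).

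The model was limma's (3.58.1, R 4.3.3; lmFit and eBayes) with a mean for each group of the 18 arrays and 1 spread per gene, and Benjamini-Hochberg adjustment over all genes. On simulated data for full iPS lines against MEFs, with 200 of 19937 genes changed in 10 runs, the share recovered was 72.8% at 1.5-fold, 97.3% at 2-fold and 100% at 4-fold, and 4.43% of calls were false. The simulated arrays were independent, while the real arrays of the 2 lines varied together, and 35.0% of real genes were called. These shares therefore need not hold for the real data.

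The members, the 46 gene lists (1066 measured genes, 18 matched through an older symbol) and the motifs were chosen with earlier results of these data known. Named genes are the 15 largest 2-fold rises and falls without overlap (predicted or clone names left out), in each list, up to 4 called genes each way with the largest differences, a fixed set of reprogramming genes (of which Tdh was not measured) and the 8 largest differences each way between the lines among genes also called against MEFs. Foxd3, Plod2, Csrp2, Myocd, Mycn, Zfp57, Tert, Cnn2, Mcm5, Mcm6, Mcm7, Hormad1, Pdgfra, Cdh5, Kdr, Tie1, Eif2s3y, Mmp2, Mthfd1l, Lum and single microRNA genes outside that rule were chosen after their values were seen. Mature sequences (for 53 of 55 listed precursors) and promoters are from RefSeq, GRCm38.p6.

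Pairing by replicate number was checked through the correlation of same-numbered arrays after subtracting group means. Full iPS lines with MEFs gave -0.0505, 0.155 and -0.00357, and EOS3F-28 with EOS3F-29 gave 0.542, 0.639 and 0.149. Of these groups, numbers were taken to pair arrays only between the 2 lines, from the values. The other groups of the model were not checked this way. Their fibroblast marker mean was also highest in replicate 1. It was 7.33, 6.19 and 6.66 in J1 cells, 8.05, 6.73 and 6.37 in the partial line and 7.43, 5.94 and 6.37 after its conversion. The main model left pairing out and took all arrays as independent. Its errors and adjusted p against MEFs may therefore be too small, and its calls between the lines ignore the pairing. Alternatives were cyclic loess, housekeeping centring, another summary over probe sets, all probe sets, dim genes left out (mean under 5), a fit on the compared arrays, a trended robust variance, a replicate block, each line alone and each array left out.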

Additional observations from a re-analysis of the deposited data

Results flagged for a closer look

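The difference between full iPS lines and MEFs was unequal in the 2 lines for 20 named genes, by the test of EOS3F-28 minus EOS3F-29 in the same model. Higher in EOS3F-28 were Krtdap (2.63), the glycosyltransferase gene Gcnt3 (2.26), the transglutaminase gene Tgm3 (2.22), Crybg1 (2.14), Slc38a5 (2.13), Lbp, a lipopolysaccharide-binding protein gene (1.96), Chil1 (1.87), the carbonic anhydrase gene Car2 (1.73), the signalling adaptor gene Gab1 (0.98), Phgdh (0.97), Mir363 (0.94) and Pou5f1 (0.90). The differences of genes higher in EOS3F-29 were below 0 for the X-linked transcript G530011O06Rik (-2.59), Cbln1 (-1.84), Baiap2l1 (-1.42), the ubiquitin ligase gene Siah1b (-1.21), Ipp (-1.11), Map7d2 (-1.08), Bclaf3 (-1.07) and the nucleotide synthesis gene Prps2 (-1.06).

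The calls of Baiap2l1, Bclaf3, Chil1, Ipp and Map7d2 were lost without single arrays. With only the compared arrays fitted, those of Tgm3 (adjusted p = 0.076), Lbp (0.0548) and Prps2 (0.0582) were lost too. For Baiap2l1 the range of adjusted p over its lost calls was 0.0517 to 0.207 and the mean over its probe sets gave -0.58. Mir363 lay at 4.22, 4.52 and 4.46 in EOS3F-28 and 3.55, 3.30 and 3.53 in EOS3F-29. Gab1 lay at 6.98, 7.56 and 7.05 in EOS3F-28 and 6.0, 6.48 and 6.16 in EOS3F-29. A clone and its culture history cannot be told apart here, since each line is 1 clone.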

How the results depend on the processing

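Between full iPS lines and MEFs 6968 genes were called, and 4306 of 7466 with dim genes left out. Housekeeping centring gave 12055 calls, with 1650 at least 2-fold rises and 425 at least 2-fold falls. Leaving out 1 array at a time gave 5800 to 7296 calls, 553 to 712 rises of at least 2-fold and 841 to 1135 falls of at least 2-fold. Replicate numbers did not pair full iPS and MEF arrays, and a replicate block gave 7516 calls. Between EOS3F-28 and EOS3F-29 the 106 calls became 49 with dim genes left out, 46 with only the compared arrays and 197 with the replicate block, and 43 to 102 without 1 array. Housekeeping centring reversed Cox7a2l and Ndufs8 (0.11 each, from -0.31), Cubn (0.10, from -0.32) and Csf1r (0.13, from -0.29), none of them called after it, and ended 29 further calls of named genes, since it added the same amount to every difference. Of the calls of named genes, over both comparisons, cyclic loess ended 4, all probe sets 10, the compared arrays alone 16 and the trended robust variance 8. The replicate block ended 1 named call against MEFs, that of Cyp26a1. Germline, epithelial and microRNA lists hold many dim genes, so that 3, 6 and 0 of their rises were tested and called with dim genes left out. Of the Hox and mesodermal lists, 2 members each were called lower in that setting. Array signal near background limits all of these lists.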

Other observations

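Saa3, an acute-phase gene outside the lists, was chosen after its values were seen. It lay at 8.79, 6.69 and 7.69 in EOS3F-28 and 9.61, 6.20 and 7.32 in EOS3F-29, against 4.23, 4.35 and 2.66 in MEFs (3.97 ± 0.69, adjusted p = 0.000187), and at 8.57, 6.05 and 7.0 in J1 ES cells. Lum, the proteoglycan lumican, was the fibroblast marker that averaged higher in full iPS arrays, at 6.09, 4.43 and 5.55 in EOS3F-28 and 7.36, 4.61 and 5.20 in EOS3F-29, against 4.37, 4.16 and 5.48 in MEFs (0.87 ± 0.61, adjusted p = 0.31), and was not called. Both had their highest full iPS value in EOS3F-29 replicate 1. Within each line their order was that of the fibroblast marker mean, to which Lum itself contributes.

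The E-box searched before germline genes was also found before 7 of 25 lysosomal genes, 0 of 19 collagen genes and 0 of 26 contractile genes, against 8.11% of all measured genes. It was present in 5 of 18 called and 2 of 7 not called lysosomal genes.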
